A study of Rattus norvegicus with 2 samples.

Results

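The genes described here are 8 enzymes and chaperones that fold, hydroxylate and trim procollagen, P4ha1, P4ha2, P4hb, Plod1, Plod2, Serpinh1, Pcolce and Bmp1. They were chosen by symbol for their known role and by no cutoff on measured values, though earlier results of these data were known. All 8 were found among the 32623 genes of the count table. Their mRNA was read in single cells of rat carotid arteries, in 1 library of normal arteries and 1 library of balloon-injured arteries.

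Collagen chains enter the endoplasmic reticulum (ER) as procollagen and must be modified before they can fold. Prolyl 4-hydroxylases, made of a catalytic alpha subunit (P4ha1 or P4ha2) and the protein disulfide isomerase P4hb, hydroxylate prolines and so keep the triple helix stable at body temperature, with iron and ascorbate as cofactors. Lysyl hydroxylases (Plod1, Plod2) modify lysines that later carry sugars and cross-links, and Plod2 acts chiefly on the telopeptides. Serpinh1 (Hsp47) is a collagen-specific chaperone, and outside the cell Bmp1 cleaves the C-terminal propeptide, an activity that Pcolce enhances. In an artery these proteins serve the smooth muscle of the media and the fibroblasts of the adventitia, and collagen that accumulates after injury forms part of the neointima.

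The study used 2 male Sprague-Dawley (SD) rats. In the case group the right common carotid artery was injured by a balloon catheter inflated and withdrawn 5 times, followed by ligation of the external carotid, and the control group was the untreated left carotid. Both were taken 28 days after injury, digested with trypsin and collagenase and run on the 10x Genomics platform, so the control and the case library come from arteries of the same animals, and both went through a digestion that can itself change expression. The labels give an age of 12 weeks for both groups. The text of the study gives 8 weeks for the rats it used, without naming the step. An age of 8 weeks at injury would be 12 weeks at collection, 28 days later. Each group is 1 library of pooled arteries, so no difference below has a replicate check, no p-value is given, and counting intervals cover counting error only.

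Of 3321 control and 5656 case barcodes, 2742 and 4930 passed the cell filter, with medians of 8880 and 5156 UMIs (unique molecules). The libraries also differed at the low end, since 27.5% of the kept control barcodes and 6.49% of the kept case barcodes held fewer than 2000 UMIs, and 21 barcode sequences were found in both. Cells were sorted into classes by summed UMIs of marker genes, none of which is a collagen or one of the 8 enzymes. This gave 1536 control and 2644 case cells that were vascular smooth muscle (VSMC)-like, 755 and 1459 fibroblast-like, 53 and 221 endothelial-like, 42 and 99 macrophage-like, and 18 and 41 Schwann-like cells. Levels are given as CPM, UMIs per 1000000 UMIs of a class, with a 95% Poisson interval in square brackets. They are compared between cells for the same gene and not between genes.

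The marker sums that follow describe the classes and are no separate check of their names, since the same markers sorted the cells. All 8 VSMC markers were found in VSMC-like cells at a sum of 26569.9 CPM in the control and 21479 CPM in the case library, against 909 and 926 CPM in fibroblast-like cells. All 8 fibroblast markers summed to 33613 and 26187 CPM in fibroblast-like cells, against 868 and 778 CPM in VSMC-like cells. All 9 macrophage markers summed to 10618 and 12928 CPM in macrophage-like cells, and to between 7.48 and 15.3 CPM in the other 3 of the larger classes. Of the 4 T cell genes in the table, Cd3e and Cd3g were at 0 in all 5 classes and both libraries, Cd3d was at 0.0746 CPM in VSMC-like control cells, and Cd2 was at 5.51 and 22.8 CPM in macrophage-like cells. A further 179 control and 141 case cells passed the limits of more than 1 class and were set aside, and so were 159 and 325 cells that passed none.

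Promoter sequences of 4 of the enzymes are shown because their mRNA differed most between cell classes or ran apart within a class in the results that follow. RefSeq (GRCr8, a later build than the Rnor_6.0 named in the submitters' processing notes) gave a promoter for 7 of the 8 genes, without Bmp1. The 250 bases before each start are chr20:27844796-27845045 for P4ha1, chr10:38743644-38743893 for P4ha2, chr8:101964068-101964317 for Plod2 and chr12:24720722-24720971 for Pcolce, all on the + strand and printed 5′ to 3′. Capitals mark matches on either strand to GGGCGG (the GC box), CCAAT (the CCAAT box) and ACGTG or GCGTG (the core of the hypoxia response element), and no matches overlapped.
P4ha1: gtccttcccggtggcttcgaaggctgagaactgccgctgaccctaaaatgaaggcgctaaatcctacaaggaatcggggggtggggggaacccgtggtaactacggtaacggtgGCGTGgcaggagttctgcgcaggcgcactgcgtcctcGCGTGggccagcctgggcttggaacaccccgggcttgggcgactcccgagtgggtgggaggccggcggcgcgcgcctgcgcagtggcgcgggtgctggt
P4ha2: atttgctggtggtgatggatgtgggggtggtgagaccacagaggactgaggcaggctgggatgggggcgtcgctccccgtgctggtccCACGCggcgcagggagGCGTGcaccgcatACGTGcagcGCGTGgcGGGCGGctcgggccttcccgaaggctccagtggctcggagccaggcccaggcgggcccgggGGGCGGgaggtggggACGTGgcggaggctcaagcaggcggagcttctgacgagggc
Plod2: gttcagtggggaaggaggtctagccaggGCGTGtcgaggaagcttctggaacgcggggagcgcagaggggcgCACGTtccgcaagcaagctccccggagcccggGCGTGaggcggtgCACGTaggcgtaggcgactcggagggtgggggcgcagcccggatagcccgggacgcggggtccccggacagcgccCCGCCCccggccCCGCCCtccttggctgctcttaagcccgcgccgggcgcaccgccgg
Pcolce: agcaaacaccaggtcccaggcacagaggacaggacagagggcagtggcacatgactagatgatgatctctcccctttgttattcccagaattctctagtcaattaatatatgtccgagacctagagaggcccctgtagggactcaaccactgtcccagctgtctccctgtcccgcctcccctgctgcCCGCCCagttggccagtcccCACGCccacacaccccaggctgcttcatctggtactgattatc

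The ACGTG core occurred 2 times each in the promoters of P4ha2 and Plod2 and in none of the other 5 matched genes, while 16.6% of the 33469 RefSeq promoters of this length held it. GCGTG occurred in 5 of the 7 genes (25.9% of all promoters) and GGGCGG in 6 of 7 (30.5%). The exception for GGGCGG was P4ha1, with 2 GCGTG cores as its only matches. CCAAT occurred only in P4hb, 2 times, against 34.0% of all promoters. The GC content of the 7 windows ran from 56.0% in Pcolce to 74.8% in Plod2. These are matches of letters, and binding was not measured here.

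The 8 genes had different homes in the arterial wall. Pcolce and Bmp1, the extracellular pair, were mainly fibroblast-like, Plod2 was mainly VSMC-like, P4hb was highest in macrophage-like cells, and P4ha1 and Plod1 were spread most evenly (the plot of levels by class). The classes were set by other genes, so no UMI of a member placed a cell in a class. Members that run with a marker can still follow the sorting, as Pcolce ran with Dcn (r = 0.99). Classes of the same library are also not replicates.

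**Figure D1:**
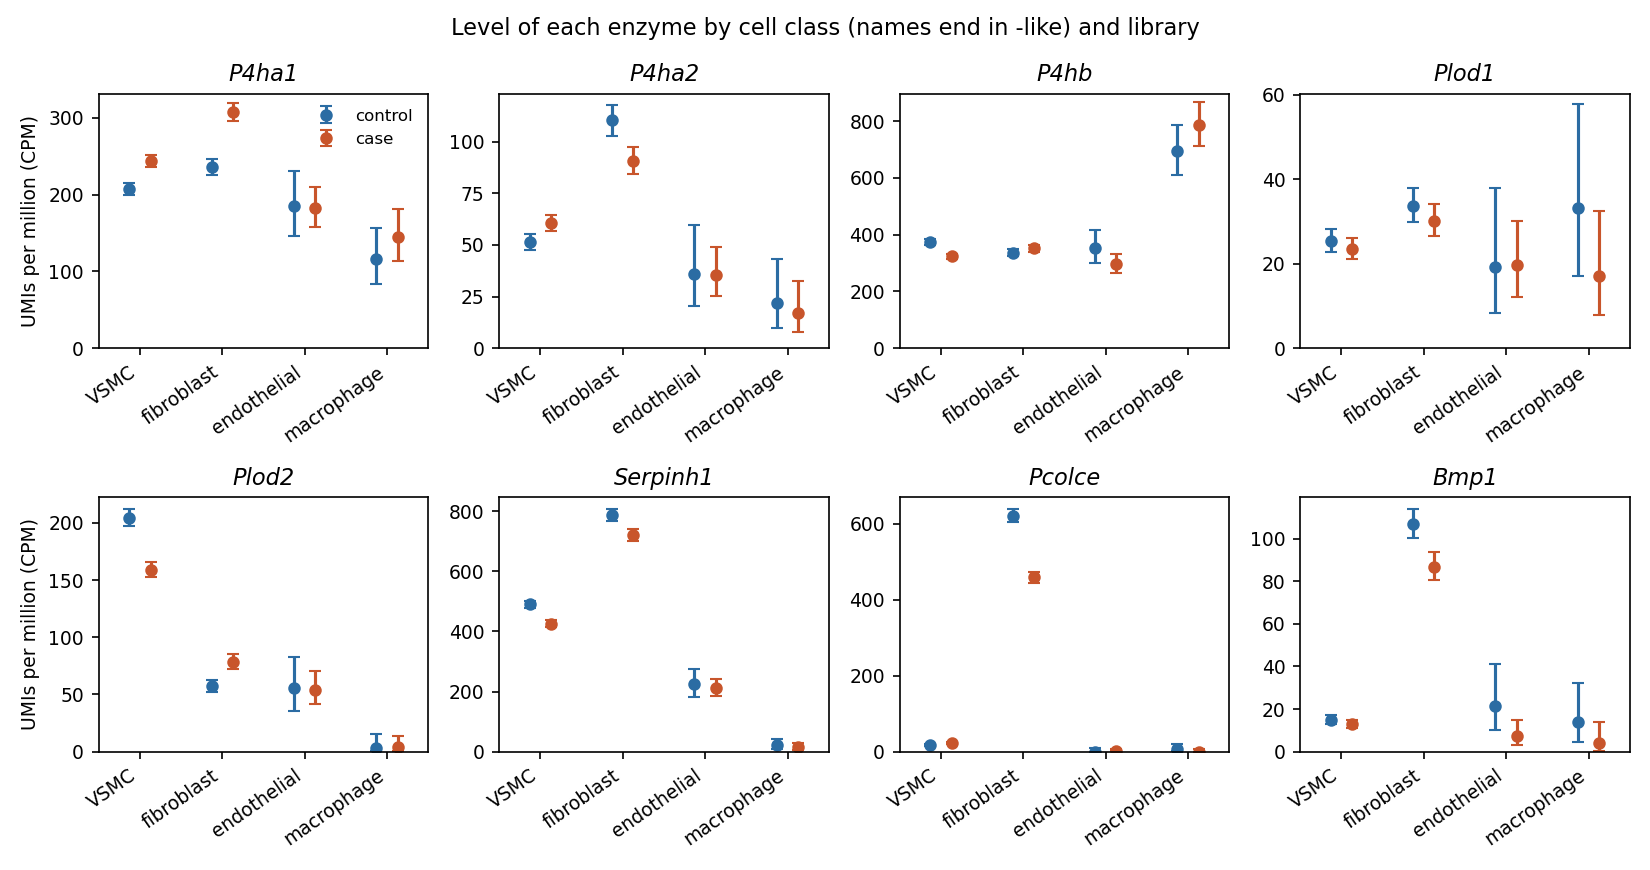
Level of each of the 8 enzymes in CPM (UMIs per 1000000 of the class) in VSMC-like, fibroblast-like, endothelial-like and macrophage-like cells, with the control library in blue and the case library in orange. Points are sums over all cells of a class in 1 library, bars are 95% Poisson intervals that cover counting error only, each panel has its own axis from 0, and the levels of Pcolce and Bmp1 stand out in fibroblast-like cells, Plod2 in VSMC-like cells and P4hb in macrophage-like cells.

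Pcolce, the enhancer of C-propeptide cleavage, stood at 622 [605, 639] CPM in fibroblast-like cells of the control library and 459 [444, 474] in those of the case library. VSMC-like cells held 16.9 and 21.7 CPM, endothelial-like cells 0 and 2 UMIs in all, and macrophage-like cells 2 and 0 UMIs. Fibroblast-like cells thus held 90.8% of its UMIs in the control and 84.3% in the case library, though they held 34.7% and 29.6% of all UMIs. Among cells thinned to 2000 UMIs, 57.6% of 700 control and 46.5% of 1389 case fibroblast-like cells had a Pcolce UMI, against 3.07% and 4.28% of VSMC-like cells (87.9%, 68.1%, 11.2% and 10.1% before thinning). None of 52 endothelial-like control cells had one, and 3 counts of 52 would be a share of 5.77%, a limit on cells with a UMI and not on cells that express the gene.

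UMIs of fibroblast markers were found in every class, with Dcn, a defining fibroblast gene, at 222 and 231 CPM in VSMC-like cells and at 67.3 and 49.6 CPM in endothelial-like cells. Per 100 Dcn UMIs, VSMC-like cells held 7.59 [6.60, 8.70] Pcolce UMIs in the control and 9.38 [8.34, 10.5] in the case library, above the 4.21 [4.09, 4.33] and 3.96 [3.83, 4.09] of fibroblast-like cells. Dcn is itself among the markers by which the classes were sorted, so these ratios are a description, and the part of carried-over fibroblast RNA in the Pcolce of VSMC-like cells was not tested.

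Bmp1, the procollagen C-proteinase itself, had 107 [100.2, 114] and 87.0 [80.6, 93.7] CPM in fibroblast-like cells and 14.9 and 13.0 CPM in VSMC-like cells. The fibroblast-like level was 7.21-fold the VSMC-like level in the control and 6.70-fold in the case library. Endothelial-like cells had 9 and 8 UMIs and macrophage-like cells 5 and 2, too few to rank. The enzyme and its enhancer were thus highest in the same class.

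Plod2, the telopeptide lysyl hydroxylase, ran the other way. VSMC-like cells held 204 [197, 212] CPM in the control and 159 [153, 166] in the case library, while fibroblast-like cells held 57.2 [52.1, 62.5] and 78.6 [72.6, 85.0]. The VSMC-like level was 3.58-fold the fibroblast-like level in the control and 2.03-fold in the case library. Endothelial-like cells held 55.3 [35.1, 83.0] and 54.2 [41.2, 70.1] CPM, within counting error of fibroblast-like cells in the control and below them in the case library, and macrophage-like cells had 1 and 2 UMIs. Its relative Plod1, which hydroxylates helical lysines, was low in all classes, at 25.4 and 23.5 CPM in VSMC-like and 33.7 and 30.2 CPM in fibroblast-like cells. Its intervals in endothelial-like cells (8 and 21 UMIs) and macrophage-like cells (12 and 9 UMIs) overlapped those of VSMC-like cells.

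Serpinh1, the collagen chaperone, followed the collagen-making cells, at 789 [769.6, 808] and 722 [703, 740.4] CPM in fibroblast-like, 490.1 [478, 502] and 426 [416, 437] in VSMC-like, 224 and 211 in endothelial-like cells, and 8 UMIs in macrophage-like cells of each library. The order of these 4 classes was the same in both libraries and no neighbouring intervals overlapped. P4hb took the opposite position. Its level in macrophage-like cells, 694 [611, 786] and 788 [714, 868] CPM, was 1.86-fold the VSMC-like level in the control and 2.44-fold in the case library. The other 3 large classes held between 298 and 373 CPM of it. P4hb also serves proteins other than collagen, as a general disulfide isomerase of the ER.

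The alpha subunits that pair with P4hb differed from each other. P4ha2 was 2.15-fold higher in fibroblast-like than in VSMC-like cells of the control library, at 110.5 [103, 118] against 51.3 [47.6, 55.3] CPM, while in the case library the log2 ratio was 0.58 [0.44, 0.73], at 90.8 [84.3, 97.7] against 60.6 [56.7, 64.7] CPM. P4ha1 was only 1.14-fold and 1.26-fold higher in fibroblast-like cells. In the control library this direction turned in cells of 4000 to 8000 UMIs, to a log2 ratio of -0.71, and also when cells were thinned to 1000 UMIs. Endothelial-like cells held P4ha1 at 185 and 182 CPM. They held P4ha2 at 36.1 and 35.5 CPM, with 15 and 38 UMIs behind it. Macrophage-like cells held P4ha1 at 116 [83.4, 156] and 145 [114, 181] CPM, below VSMC-like and fibroblast-like cells, and with intervals that overlapped those of endothelial-like cells.

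Genes whose mean over the pair of classes reached 50 CPM were counted. Of the 7 members that passed, 4 were past 1.5-fold higher in fibroblast-like than in VSMC-like control cells (P4ha2, Serpinh1, Pcolce, Bmp1), where 22.5% of 2608 genes were. In the lower direction 1 of 7 was (Plod2), where 29.8% were. In the case library 2 of 6 were higher (Serpinh1, Pcolce), where 23.4% of 2461 genes were, and 1 of 6 lower (Plod2), where 27.2% were. P4ha2 lay just under the limit there at a log2 ratio of 0.58, and Bmp1 did not pass 50 CPM. The median log2 ratio of the 8 members was 0.55 in the control (range -1.84 to 5.21) and 0.47 in the case library (-1.02 to 4.40), beside -0.07 and 0.00 for all genes tested.

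Schwann-like cells were few, 18 control and 41 case cells, and are given as values only. Serpinh1 had 13 UMIs in the control (152 CPM) and 60 in the case library (449.6 CPM), P4ha1 16 and 35, P4hb 24 and 24, and each other member 8 or fewer in either library. Cells that passed the limits of more than 1 class held 298 and 232 CPM of Pcolce and 132 and 111 CPM of Plod2, between the VSMC-like and fibroblast-like levels. Their share of the kept cells was 6.53% in the control and 2.86% in the case library, with median depths of 1422 and 9152 UMIs.

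The main comparison asks what these enzymes did in the injured artery 28 days on. The differences were small. Between the libraries no member with at least 10 UMIs in each was past 1.5-fold in any of the 4 larger classes, and the enzymes did not move together (the plot of changes). In VSMC-like cells 0 of 5 members that passed 50 CPM were called, where 7.62% of 2521 genes were higher and 15.5% lower in the case library. In fibroblast-like cells 0 of 7 were called, where 6.91% of 2373 genes were higher and 14.1% lower. The median log2 ratio of case over control for all 8 members was -0.15 in VSMC-like and -0.14 in fibroblast-like cells, with 3 members above and 5 below 0 in each, beside medians of -0.12 and -0.07 over all genes tested. The libraries also filled the classes differently. When cells were clustered, most control cells of the VSMC-like clusters lay in clusters 4 (832 control and 161 case cells), 7 (304 and 18) and 6 (298 and 186), and most case cells in clusters 1 (132 and 1197) and 2 (74 and 1239). Of the fibroblast-like clusters, cluster 3 held 598 control and 702 case cells and cluster 5 held 132 and 809. Over both libraries, P4ha1 ran from 203 to 281 CPM in the VSMC-like clusters 1, 2 and 4. It stood at 123 CPM in cluster 7 and 414 CPM in cluster 6, whose median depths were only 489.5 and 1502 UMIs. Pcolce stood at 593 CPM in cluster 3 and 371 CPM in cluster 5. The part of this makeup in the differences that follow was not tested.

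**Figure D2:**
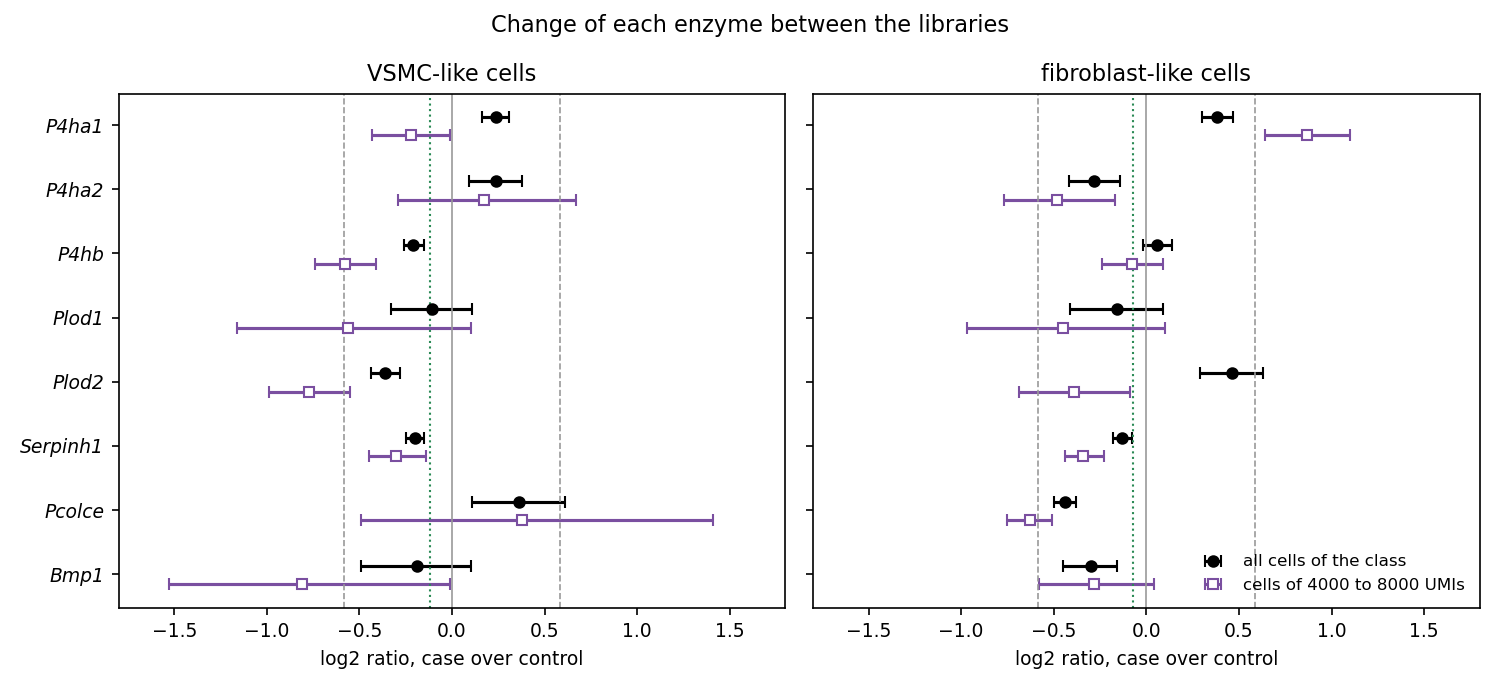
Log2 ratio of case over control for each of the 8 enzymes in VSMC-like cells (left) and fibroblast-like cells (right), with 95% counting intervals. Filled circles are all cells of the class and open squares only cells of 4000 to 8000 UMIs, dashed lines mark 1.5-fold, the dotted line is the median of all genes tested, and the squares of P4ha1 in VSMC-like cells and of Plod2 and P4hb in fibroblast-like cells lie on the other side of 0 from their circles.

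P4ha1 was the only member with a higher level in the case library in both large classes by more than counting error. It went from 207 [199.8, 215] to 244 [236, 252] CPM in VSMC-like cells, a log2 ratio of 0.24 [0.16, 0.31], and from 236 [226, 247] to 308 [296, 320.1] CPM in fibroblast-like cells, 0.38 [0.30, 0.47]. Because the control cells were more deeply sequenced, the comparison was repeated in cells of 4000 to 8000 UMIs, an alternative chosen after the data were seen. It leaves 123 of the 1536 VSMC-like and 163 of the 755 fibroblast-like control cells, and 1664 of the 2644 and 817 of the 1459 case cells. The control medians of these classes, 9595.5 and 10889 UMIs, lie above this window and the case medians, 5394 and 5139 UMIs, inside it. The control cells are thus a shallow part of their class, and the part of this choice in the values was not tested. In cells of this depth P4ha1 was at -0.22 [-0.43, -0.01] in VSMC-like cells, the opposite direction, and at 0.87 [0.64, 1.10] in fibroblast-like cells, past 1.5-fold as 15.8% of genes were. The fibroblast-like difference held its direction under all 13 alternative settings tried, and the VSMC-like difference under 12.

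P4ha2, the other alpha subunit, was higher in the case library in VSMC-like cells, at 0.24 [0.09, 0.38], and lower in fibroblast-like cells, at -0.28 [-0.42, -0.14]. It went from 51.3 to 60.6 CPM in the first class and from 110.5 to 90.8 CPM in the second. Both directions held under all 13 settings, with a range of 0.13 to 0.38 in VSMC-like and -0.48 to -0.20 in fibroblast-like cells. P4hb, the shared beta subunit, was lower in VSMC-like cells, from 373 [362, 383] to 323 [314, 332] CPM (-0.21), and did not differ beyond counting error in fibroblast-like cells, at 337 [325, 350.1] and 352 [339, 365] CPM (0.06, and -0.08 in cells of 4000 to 8000 UMIs).

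Plod2 was lower in VSMC-like cells of the case library, at -0.36 [-0.44, -0.28], and higher in fibroblast-like cells, at 0.46 [0.29, 0.63]. The VSMC-like direction held under all 13 settings and reached -0.77 [-0.99, -0.55] in cells of 4000 to 8000 UMIs, where 12.7% of genes were lower past 1.5-fold. The fibroblast-like direction did not hold, with -0.39 [-0.69, -0.09] in cells of that depth. Plod1 stayed within counting error in both classes, at -0.11 [-0.33, 0.11] and -0.16 [-0.41, 0.09].

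Serpinh1 was slightly lower in the case library in both classes, at -0.20 [-0.25, -0.15] in VSMC-like and -0.13 [-0.18, -0.08] in fibroblast-like cells. The medians of all genes in these classes were -0.12 and -0.07. Pcolce was lower in fibroblast-like cells, at -0.44 [-0.50, -0.38], and the direction held under all 13 settings with a range of -0.63 to -0.36. Cells with a Pi16 UMI after thinning, which held more Pcolce, were 505 of 700 in the control and 603 of 1389 in the case library, and their part in this difference was not tested. In VSMC-like cells it was higher, at 0.36 [0.11, 0.61], from 226 and 324 UMIs in all, and at -0.04 when each cell was weighted alike. Bmp1 was lower in fibroblast-like cells, at -0.30 [-0.45, -0.16], and within counting error in VSMC-like cells, at -0.19 [-0.49, 0.10]. Fibroblast-like cells with a Pi16 UMI held 109.9 CPM of Bmp1 in the control and 108 in the case library, and those without held 101 and 70.9 CPM. The part of Pi16 in the Bmp1 difference was not tested. The extracellular pair was thus lower in the case library in the class where both were highest.

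In endothelial-like cells the 5 members with at least 10 UMIs in each library (P4ha1, P4ha2, P4hb, Plod2, Serpinh1) had log2 ratios from -0.25 to -0.02, each with an interval that included 0, and a median of -0.03 beside -0.09 for all genes. None of the 4 that passed 50 CPM was called, where 18.4% of 2703 genes were higher and 25.7% lower, in 53 control cells with 415762 UMIs. In macrophage-like cells only P4ha1 (0.32 [-0.24, 0.90]) and P4hb (0.18 [-0.05, 0.41]) could be compared, with a median of 0.25 beside 0.03. Neither was called, where 16.1% of 2459 genes were higher and 13.7% lower. With all kept cells of a library summed, Pcolce was lowest at -0.56 [-0.62, -0.50] and P4ha1 highest at 0.26 [0.21, 0.32]. Sums of this kind also follow the shares of the classes, so fewer cells of a type and less RNA per cell cannot be told apart in them.

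Within a class, cells differ in how much collagen they make. Fibroblast-like cells thinned to 2000 UMIs were ordered by their Col1a1 and Col3a1 UMIs and divided into 4 equal bins, with medians of 12 collagen UMIs in the lowest and 127 in the highest bin of the control and 6 and 109 in those of the case library (the plot of collagen bins). The enzymes split into those that were higher with more collagen and those that were not. Values are descriptions, since all cells of a bin come from 1 library.

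**Figure D3:**
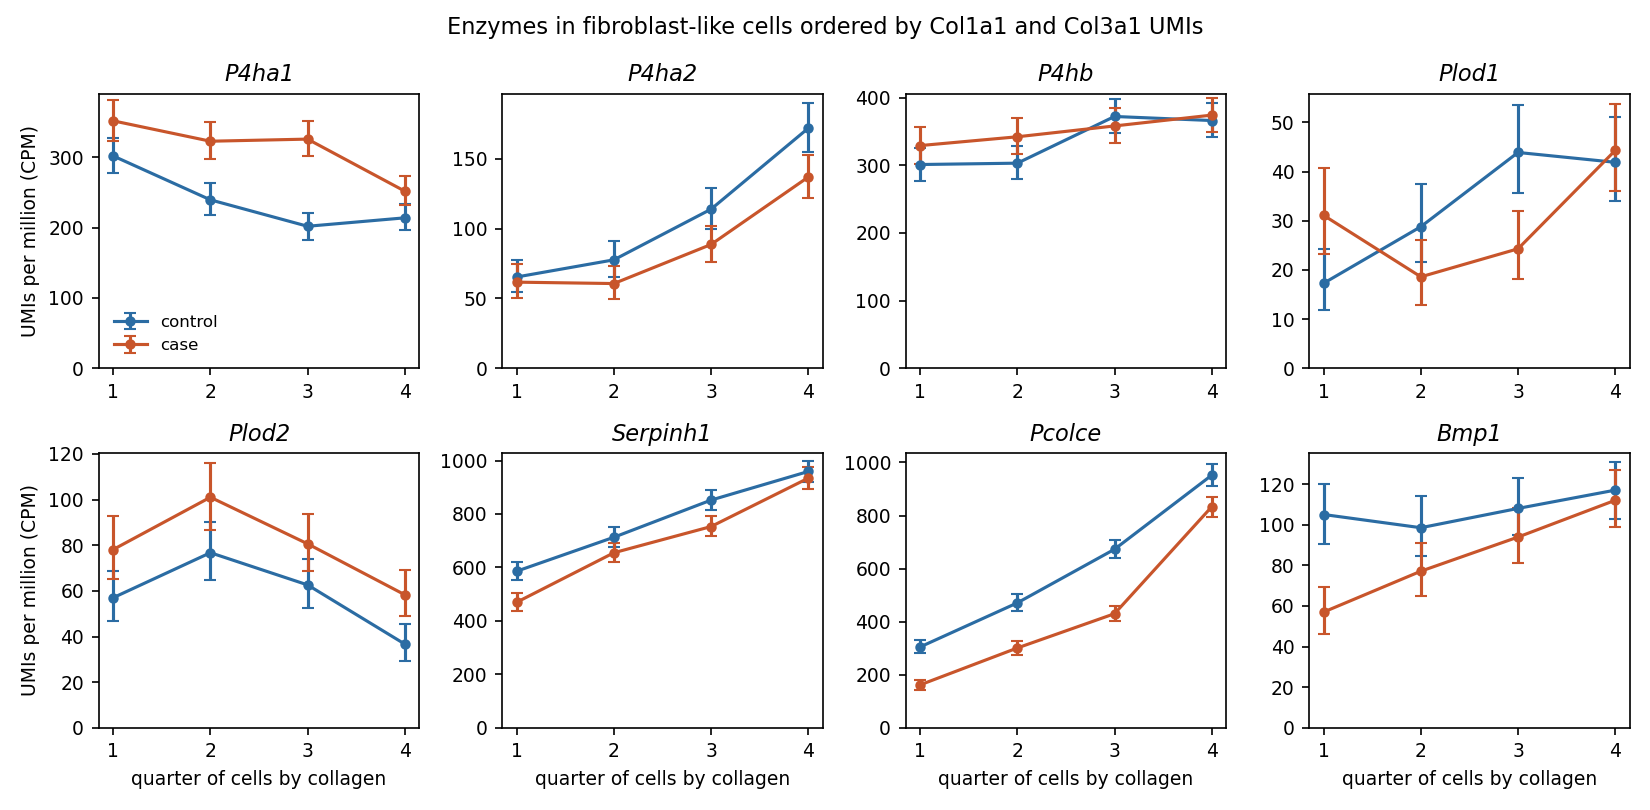
Level of each of the 8 enzymes in CPM in fibroblast-like cells divided into 4 bins, from bin 1 with the fewest to bin 4 with the most Col1a1 and Col3a1 UMIs per 2000, in the control (blue) and case (orange) library. Points are sums over 175 control or 347 to 348 case cells and bars are 95% Poisson intervals, and Pcolce, P4ha2 and Serpinh1 climb with collagen in both libraries while P4ha1 declines.

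Pcolce had the steepest climb, from 305 to 952 CPM between the lowest and the highest bin of the control library and from 162 to 833 CPM in the case library, 3.12-fold [2.85, 3.43] and 5.14-fold [4.53, 5.85]. P4ha2 went from 65.4 to 172 CPM and from 61.7 to 137 CPM, 2.63-fold [2.15, 3.25] and 2.22-fold [1.78, 2.80]. Serpinh1 went from 586 to 959 CPM and from 469.9 to 934 CPM. P4hb was nearly level, with 1.22-fold [1.09, 1.36] and 1.14-fold [1.02, 1.27]. Median depth also differed between the lowest and the highest bin, from 10733 to 12967 UMIs in the control and from 4580 to 6389 in the case library, and its part in these values was not tested.

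P4ha1 ran against collagen. It stood at 302 [278, 327] CPM in the lowest and 214 [196, 234] in the highest control bin, and at 352 [324, 381] and 252 [232, 274] CPM in those of the case library, 0.711-fold [0.629, 0.803] and 0.718-fold [0.639, 0.806]. Plod2 was lower in the highest than in the lowest bin, 0.644-fold [0.478, 0.863] and 0.746-fold [0.582, 0.956]. It showed no steady decline, since bin 2 was its highest in both libraries, at 76.7 and 101 CPM against 57.0 and 78.1 CPM in the lowest bin. P4ha1 and P4ha2, the alternative alpha subunits that pair with P4hb, therefore ran in opposite directions across fibroblast-like cells of both libraries. Bmp1 was level in the control, at 105 and 117 CPM, and climbed in the case library from 57.0 to 112 CPM. Plod1, at low levels, was higher in the highest than in the lowest bin, 2.43-fold [1.62, 3.73] in the control and 1.42-fold [1.01, 2.02] in the case library. In the case library its bins 2 and 3 (18.6 and 24.3 CPM) lay below the lowest bin (31.1 CPM).

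VSMC-like cells were ordered the same way, with medians of 2 and 11 collagen UMIs in the lowest and highest control bin and 2 and 10 in the case library. Bins set by so few UMIs also sort cells by counting error. Cells under 2000 UMIs were left out, 494 in the control and 118 in the case library. P4ha1 was higher in the highest than in the lowest bin, at 254 against 167 CPM and 288 against 230.4 CPM. In the case library bins 2 and 3 held 222 and 229 CPM, so only the highest bin stood apart. The fold of P4ha1 between the lowest and highest bin was 1.52 [1.36, 1.70] and 1.25 [1.14, 1.37], so its direction between them was the opposite of that in fibroblast-like cells. All 8 members had a ratio above 1 in VSMC-like cells of both libraries, from 1.09 for Plod2 in the case library to 1.76 for Plod1 in the control. The intervals of Plod1, Plod2 and Bmp1 in the case library included 1. The share of all genes with a ratio above 1 between these bins was not computed, so the count of members is a description only.

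Gfpt2, an enzyme of hexosamine synthesis, gave a further range among fibroblast-like cells. Cells with a Gfpt2 UMI after thinning, 410 of 700 in the control and 897 of 1389 in the case library, held 274 CPM of P4ha1 against 164 without in the control, and 337 against 246 in the case library, log2 ratios of 0.74 [0.59, 0.90] and 0.45 [0.32, 0.59]. The other 7 members were all lower in the cells with Gfpt2 in both libraries, by log2 ratios from -0.55 to -0.25 in the control and -0.80 to -0.02 in the case library. Pcolce was at 535 against 783 CPM and at 376 against 653 CPM. Median depths were 13114 and 9194.5 UMIs in the control and 5789 and 4406 in the case library. The part of depth in these values was not tested. The share of all genes lower in cells with Gfpt2 was not computed, so the count of members is a description only. The case intervals of P4hb and Plod1 included 0.

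Cells with Pi16, an adventitial marker that is itself among the markers of the class, held more Pcolce in both libraries, 656 against 525 CPM and 498 against 427 CPM, and more P4ha2, 119 against 88.4 and 103 against 80.4 CPM. Serpinh1 was also higher in them, at log2 ratios of 0.15 [0.07, 0.24] and 0.10 [0.03, 0.18]. Bmp1 was at 0.12 [-0.10, 0.34] in the control and at 0.61 [0.39, 0.83] in the case library, the largest ratio there. Cells with Postn, a matricellular gene of activated fibroblasts, numbered 193 in the case library, where the log2 ratios of the 8 members ran from -0.16 to 0.13 against cells without. In the control they numbered 19, with Pcolce at -1.01 [-1.42, -0.62] and Bmp1 at -0.94, its interval also below 0. In VSMC-like cells, those with Spp1, a gene of synthetic smooth muscle, held more Plod2, 228 against 189 CPM in the control and 176 against 149 CPM in the case library. P4ha1 (log2 ratios of 0.15 and 0.11) and Serpinh1 (0.16 and 0.08) were also higher in them beyond counting error. In VSMC-like cells with Notch1, P4ha1 (0.24 and 0.24) and Serpinh1 (0.19 and 0.27) were higher beyond counting error. Plod2 was at -0.17 and -0.13 there, with intervals that included 0. No other member passed counting error in both libraries in either range.

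Since collagen itself differed between the libraries, the enzymes were also set against it. Col1a1 stood at 18114 CPM in fibroblast-like control cells and 12844 in case cells, and Col3a1 at 14941 and 14311. Per 1000 UMIs of these substrates, fibroblast-like cells held 7.15 UMIs of P4ha1 in the control and 11.3 in the case library, a log2 ratio of 0.67 [0.58, 0.75]. Plod2 went from 1.73 to 2.89 per 1000, 0.74 [0.57, 0.92], and P4hb from 10.2 to 13.0. In cells of 4000 to 8000 UMIs, however, Plod2 was at -0.39 per UMI of the class, beside -0.45 for Col1a1 and -0.05 for Col3a1. P4ha2 held its ratio to collagen at 3.34 in both libraries, and Pcolce went from 18.8 to 16.9. The 8 members summed to 69.4 and 78.3 UMIs per 1000 UMIs of Col1a1 and Col3a1 in fibroblast-like and to 426 and 439 in VSMC-like cells. VSMC-like cells thus carried more enzyme mRNA per mRNA of these 2 chains in both libraries. Other chains were not counted and ran either way. In VSMC-like and fibroblast-like control cells Col18a1 stood at 1524 and 85.4 CPM, and Col14a1 at 32.6 and 482 CPM.

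Several other genes of the pathway were past 1.5-fold between the libraries. In a list of 23 other collagen biosynthesis enzymes and carriers, 21 were in the table. In VSMC-like cells of the case library, 4 of the 5 that passed 50 CPM were lower past 1.5-fold, where 15.5% of all genes were. In fibroblast-like cells 3 of 8 were, where 14.1% were, and none was higher in either class. The medians were -0.68 and -0.46 over all cells, and -0.61 and -0.18 in cells of 4000 to 8000 UMIs, where those of the 8 members were -0.43 and -0.37. Ppib (cyclophilin B), a prolyl isomerase that works with the 3-hydroxylases, went from 567 to 288 CPM in VSMC-like and from 725 to 400.5 CPM in fibroblast-like cells, -0.98 [-1.03, -0.92] and -0.86 [-0.92, -0.79]. P3h3, of the prolyl 3-hydroxylase family, was at -0.83 and -0.68. Fkbp9, an ER isomerase, was at -0.68 in VSMC-like cells. Sar1b, a GTPase of ER export, was at -0.60 in VSMC-like and -0.67 in fibroblast-like cells. Fkbp10, an isomerase that acts on collagen, was at 0.13 in fibroblast-like cells.

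**Figure D4:**
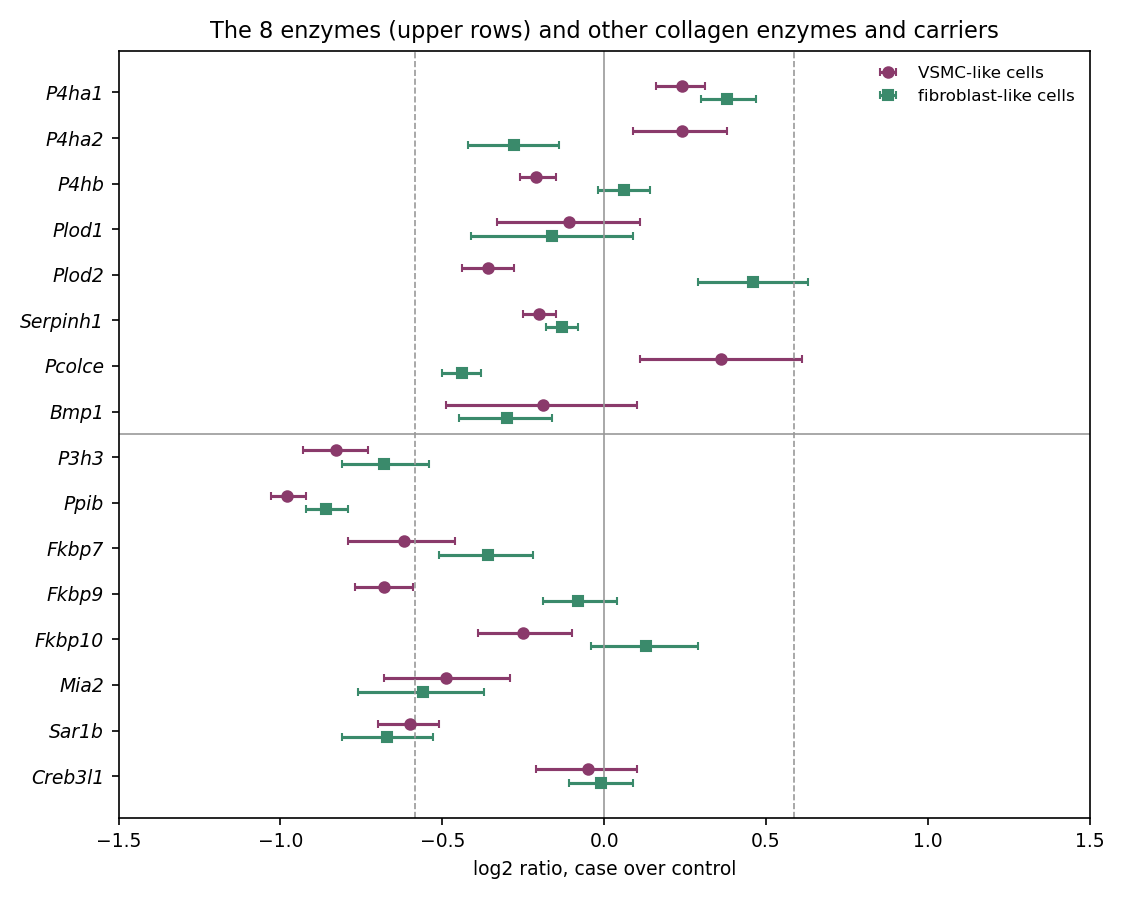
Log2 ratio of case over control for the 8 enzymes (above the line) and for the other collagen enzymes and carriers that passed 50 CPM in at least 1 of these classes (below it), in VSMC-like cells (circles) and fibroblast-like cells (squares), with 95% counting intervals and dashed lines at 1.5-fold. None of the 8 enzymes lies past a dashed line, while Ppib, P3h3 and Sar1b do in both classes.

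In cells of 4000 to 8000 UMIs, Ppib stayed at -0.95 and -0.64 and P3h3 at -0.89 and -0.86, while Sar1b was at 0.12 in VSMC-like and -0.27 [-0.59, 0.07] in fibroblast-like cells, and Mia2, a factor of procollagen export, went from -0.56 to 0.15 in fibroblast-like cells. Of the extracellular processing and cross-linking list, 1 of 5 genes was lower past 1.5-fold in VSMC-like and 1 of 7 in fibroblast-like cells. These counts are near the shares of all genes, 15.5% and 14.1%. In both cases the gene was Sparc, a collagen-binding matricellular protein, at -0.73 and -0.88. The next were Fn1 (fibronectin) at -0.45 and Lox, a cross-linking oxidase, at -0.34 in VSMC-like cells, and Lox at -0.15 and Adamts2, the N-proteinase, at -0.10 in fibroblast-like cells. The highest were Loxl1 at 0.08 in VSMC-like cells and Fn1 at 0.51, Loxl1 at 0.27 and Loxl2 at 0.14 in fibroblast-like cells. At matched depth Sparc was at -0.67 and -0.56, the second under 1.5-fold, and Fn1 in VSMC-like cells at -0.69, past it. Loxl1 in both classes and Lox and Adamts2 in fibroblast-like cells did not keep their direction there.

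Among the collagen chains, 9 of 9 that passed were below 0 in VSMC-like cells. Of these, Col3a1 (-0.05) and Col6a2 (-0.02) lay within the 0.14 by which TMM scaling shifts this class. Past 1.5-fold lower were 2, Col6a1 at -0.90 and Col5a2 at -0.76, where 15.5% of all genes were, and Col15a1 was next at -0.40. In fibroblast-like cells 3 of 13 were higher past 1.5-fold, where 6.91% of all genes were, namely Col8a1 at 2.62, Col12a1 at 1.15 and Col5a3 at 1.12. The lowest there were Col14a1 at -0.53, Col1a1 at -0.50 and Col15a1 at -0.49. At matched depth 5 of the 9 were past 1.5-fold lower in VSMC-like cells (Col5a2 -1.40, Col6a1 -1.30, Col4a1 -0.81, Col5a1 -0.69, Col15a1 -0.62), where 12.7% of genes were. In fibroblast-like cells of that depth Col8a1 was at 1.40, Col12a1 at 1.23, Col5a3 at 1.02, Col18a1 at -0.59 and Col4a1 at 1.39, up from 0.49 over all cells. The 3 chains that were higher over all cells are a network-forming, a fibril-associated and a minor fibrillar chain, while the main fibrillar chain Col1a1 was lower. In fibroblast-like cells 5 of the 8 enzymes had log2 ratios between those of Col1a1 (-0.50) and Col3a1 (-0.06), with P4ha1, P4hb and Plod2 above them. Over the 2373 genes tested there, the first quartile (-0.38) and the median (-0.07) also lay in this band, so it is not particular to the enzymes. At matched depth Col1a1 was at -0.45 and Col3a1 at -0.05. Plod2 (-0.39), Serpinh1 (-0.34) and P4hb (-0.08) lay between them, and so did Bmp1, which ran from -0.33 to -0.22 over the alternative settings. P4ha1 (0.87) lay above and P4ha2 (-0.48) and Pcolce (-0.63) below them. Plod1 ran from -0.78 to -0.08 over those settings and is not placed here.

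General ER folding genes were lower past 1.5-fold in 6 of 14 in VSMC-like cells, where 15.5% of all genes were. In fibroblast-like cells 3 of 14 were, where 14.1% were. None was higher in either class, and the medians were -0.35 and -0.23. Kdelr3, a retrieval receptor, was at -1.24 and -0.87, Manf, a secreted ER stress protein, at -0.86 and -0.83, and Pdia6, a disulfide isomerase, at -0.84 and -0.73. The highest were Ddit3 at 0.24, Pdia4 at 0.21 and Herpud1 at 0.09 in VSMC-like cells and Hspa5 at 0.12, Dnajb9 at 0.10 and Pdia4 at 0.06 in fibroblast-like cells. At matched depth 13 of 14 genes kept their direction in VSMC-like and 11 of 14 in fibroblast-like cells, with medians of -0.57 and -0.06. In fibroblast-like cells there, Kdelr3 (-1.64) and Pdia6 (-0.84) stayed past 1.5-fold, Manf was at -0.05 [-0.36, 0.26], and Herpud1, at -0.23 over all cells, was at 0.68 [0.53, 0.82]. In VSMC-like cells Pdia4 turned to -0.25 and Herpud1 was at 0.57. In macrophage-like cells, where P4hb was highest, 4 of 11 were higher and none lower, from 42 control cells. Over all genes tested there, 16.1% were higher.

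Cofactor supply was read from 3 genes that passed in both classes. Tfrc, the transferrin receptor that brings in iron, was higher at 0.51 and 0.95 in VSMC-like and fibroblast-like cells of the case library. The ferritin chains Fth1 (-0.63 and -0.47) and Ftl1 (-0.52 and -0.90) were lower in them. Past 1.5-fold, 1 of 3 was lower in VSMC-like cells, where 15.5% of all genes were. In fibroblast-like cells 1 was higher and 1 lower, where 6.91% and 14.1% were. At matched depth Fth1 was at -0.11 and 0.23, Ftl1 at -0.20 and -0.22 and Tfrc at 0.16 [-0.19, 0.53] and 1.06, so of these calls only Tfrc in fibroblast-like cells held. Of hypoxia-responsive genes, 1 of 8 was higher and 1 lower past 1.5-fold in VSMC-like cells, where 7.62% and 15.5% of all genes were. In fibroblast-like cells 2 of 8 were higher, where 6.91% were. Hk2 (hexokinase 2) led at 1.15 and 1.09, with Ndrg1 at 0.19 and Slc2a1 at 0.05 in VSMC-like and Slc2a1 at 0.71 and Ndrg1 at 0.53 in fibroblast-like cells, while Ankrd37 (-0.84), Pgk1 (-0.53) and Ldha (-0.34) were lowest in VSMC-like and Ldha (-0.53), Bnip3 (-0.41) and Pgk1 (-0.28) in fibroblast-like cells. The directions were mixed over all cells, with medians of -0.26 and 0.09. At matched depth the medians were -0.02 and 0.44, and in fibroblast-like cells Slc2a1 was at 1.94, Hk2 at 1.91, Ndrg1 at 0.67 and Ldha at 0.05, with Bnip3 at -0.64. In VSMC-like cells Hk2 (0.90) and Ankrd37 (-1.29) stayed past 1.5-fold, Pgk1 was at -0.07, Ldha at 0.04 and Slc2a1 at -0.31.

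Signs of handling were read in the same cells. Heat shock genes were mixed, with Hsph1 (0.78 and 0.49) and Dnajb1 (0.36 and 0.31) higher in VSMC-like and fibroblast-like cells, joined by Hspd1 (0.64) in the first and Hspa1b (0.36) in the second, and Hspa8 (-0.39 and -0.40), Hspb1 (-0.30 and -0.52) and Hspe1 (-0.21 and -0.58) lower. They were past 1.5-fold higher in 2 of 7 in VSMC-like cells and in none in fibroblast-like cells, where 7.62% and 6.91% of all genes were. Of 9 early genes tied to tissue dissociation, Egr1 (0.28 and 0.47) was highest in both, followed by Nr4a1 (0.10) and Fos (0.02) in VSMC-like and Jun (0.30) and Fosb (0.22) in fibroblast-like cells. The lowest were Ier2 (-0.48), Junb (-0.43) and Atf3 (-0.42) in VSMC-like and Junb (-0.79), Nr4a1 (-0.56) and Ier2 (-0.55) in fibroblast-like cells. At matched depth Dnajb1 (-0.33 [-0.45, -0.20]) and Hspa1b (-0.38 [-0.41, -0.35]) turned direction in fibroblast-like cells, where Hspb1 (-1.33), Hspe1 (-0.91) and Hspa8 (-0.72) were past 1.5-fold lower, and in VSMC-like cells Hspe1 turned to 0.07 while Dnajb1 was at 0.66. Of the 9 early genes, 5 turned direction in fibroblast-like cells and their median went from 0.03 to -0.84, in the cells in which Plod2 also turned, and 2 turned in VSMC-like cells, Fos to -0.30 and Fosb to 0.04. The part of dissociation in the differences of the 8 members was not tested.

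Across the 10 points of class and library, the genes whose profile was most like the mean of the 8 members were C1r (Pearson r = 0.988), Mmp2 (0.983), Ctsk (0.965), Fbn1 (0.963) and Plagl1 (0.962), out of 3165 genes compared. Taken singly, P4ha2 was most like Mmp2 (0.971), Pcolce most like Dcn (0.990), Plod2 most like Pkd1 (0.973), Serpinh1 most like Klf9 (0.980) and P4hb most like Skap2 (0.960). Between members, r was highest for P4ha1 and Serpinh1 (0.91) and for P4ha2 and Serpinh1 (0.90), and lowest for P4hb and Serpinh1 (-0.77). The points are 5 classes of the same 2 libraries that share depth and composition, so these r are descriptions only.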

How the data were processed

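Single cells of rat carotid arteries were profiled by droplet sequencing (10x Genomics). The authors deposited UMI counts of 32623 genes per barcode, with Cell Ranger 3.1.0 in the matrix header and Rnor_6.0 and Seurat in the submitters' processing notes. The strand setting and read filters are not given in the sources used here. Barcodes carry 2 suffixes, matched to the groups by the barcode numbers the study states (3321 control, 5656 case). The control library held 24968329 UMIs and the case library 28232614.

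Barcodes were kept with at most 20% mitochondrial UMIs, log10 UMIs and genes within 2 SD of the library mean, and within 3 robust SD of a linear fit. A class needed at least 3 markers and 60 (VSMC, fibroblast), 10 (macrophage) or 8 (endothelial, Schwann) marker UMIs per 10000, in 1 class only. These limits were set after the marker scores were seen. Of VSMC-like cells 223 of 1536 control and 377 of 2644 case cells, and of fibroblast-like cells 34 of 755 and 160 of 1459, lay below 2 times their limit. Doublets were left in, since Scrublet called 6 control and 0 case cells (0.219% and 0%) and so did not work as a caller here, and cells of more than 1 class were left out.

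UMIs were summed per class and library. Intervals are exact 95% Poisson intervals, or conditional exact intervals for ratios, and Clopper-Pearson intervals for shares. They cover counting error only. A gene was called when past 1.5-fold with a mean of at least 50 CPM, with 0 counts set to 3. Log2 ratios of a member needed 10 UMIs in each library in the main counts, and this was not applied again to the alternatives. With 1 library per group there was no test across samples. The members and gene lists were chosen with earlier results of these data known. Named genes were the members, the 3 highest and 3 lowest of each list in VSMC-like and fibroblast-like cells among genes of at least 50 CPM, and the 5 genes most like the mean of the members. Single genes most like 1 member, genes that turned direction at matched depth, and the rest of those named beyond this rule were chosen after their values were seen. Profiles used log2(CPM + 10) over 10 points. Col1a2, Col6a3, Crtap, Mia3, Pcolce2, Hspa1a and Car9 were listed and not analysed here. The ratio, its interval and the call were tested on simulated counts, and thinning was checked on cells of these data. A total of 11 alternatives was planned and 2 were added after seeing the data. Software was scanpy 1.11.5 with leidenalg 0.10.2, pandas 2.3.3, scipy 1.17.1 and matplotlib 3.10.9 under Python 3.11.15, and edgeR 4.0.16 in R 4.3.3 for TMM factors.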

Additional observations from a re-analysis of the deposited data

Results flagged for a closer look

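A total of 3 of the enzymes stood out because their difference between the case and the control library had opposite signs in VSMC-like and fibroblast-like cells, each beyond its counting interval. P4ha2 was at a log2 ratio of 0.24 in VSMC-like and -0.28 in fibroblast-like cells. Plod2 was at -0.36 and 0.46, and Pcolce at 0.36 and -0.44. The difference between the classes was not tested, since each group is 1 library. Of these 3, only P4ha2 and Pcolce kept opposite signs in cells of 4000 to 8000 UMIs, judged by sign alone and not by counting interval. Plod2 was below 0 in both classes there, at -0.77 and -0.39. P4ha1 took opposite signs at that depth, at -0.22 in VSMC-like and 0.87 in fibroblast-like cells. Pcolce in VSMC-like cells was at -0.04 when cells were weighted alike.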

How the results depend on the processing

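Each log2 ratio was recomputed under 13 alternatives. Among them, removal of the Scrublet calls took out only 6 control and 0 case cells, so it could hardly change a value, though it is counted wherever settings are counted. Of 507 values of single genes, 420 stayed within the counting interval of the reported value, 87 moved outside it, and none of the values reported as past 1.5-fold changed sign. Values reported under that limit did, among them P4ha2 in endothelial-like cells, from -0.02 to 1.40 when thinned to 1000 UMIs. The need for 10 UMIs in each library was not applied again to the alternatives, so values of the small classes can rest on fewer UMIs there. In cells of 4000 to 8000 UMIs, chosen after seeing the data, the median of the members was -0.43 in VSMC-like and -0.37 in fibroblast-like cells, beside -0.03 over all genes in each, and the cause was not tested. With TMM scaling, which shifts every ratio by 0.14, 0.08, 0.18 and -0.08 in VSMC-like, fibroblast-like, endothelial-like and macrophage-like cells and by 0.22 and 0.15 between classes of the control and case library, the median of fibroblast-like over VSMC-like control cells was 0.77. Of the list genes, Col3a1 in both large classes (-0.05 and -0.06) changes sign under this shift, as do others nearer 0 than the shift. Among members, TMM turned Plod1 to 0.02 in VSMC-like cells and P4hb to 0.08 for fibroblast-like over VSMC-like control cells, and P4ha1 was at -0.71 there at matched depth. At matched depth Bmp1 was at -0.81 in VSMC-like cells and Pcolce at -0.63 in fibroblast-like cells, where 12.7% and 19.2% of genes were lower past 1.5-fold. Thinned to 1000 UMIs, Bmp1 was at 0.30 and the median of the members at 0.01 in VSMC-like cells, and the median in macrophage-like cells at -0.07. The median in endothelial-like cells was at 0.15 with TMM. With limits of 0, 20, 50 or 100 CPM, no member was called between the libraries in VSMC-like or fibroblast-like cells, where 12.0%, 6.05%, 7.62% and 9.68% of genes were higher and 20.3%, 14.6%, 15.5% and 16.5% lower in the first class. Without a limit, 1 of 7 members was lower in the endothelial-like class, where 37.4% of genes were. In the macrophage-like class 2 of 7 were, where 18.5% were, and at 20 CPM 1 of 3, where 15.6% were. These members had low counts. Removing the top 5% of Scrublet scores changed no direction in the large classes. No paired analysis was possible because each group is 1 library. Depth limits Plod1, Bmp1 and all genes in endothelial-like, macrophage-like and Schwann-like cells.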
